A study of Rattus norvegicus with 28 samples.

Results

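The genes described here are 33 enzymes of glucose oxidation in the rat striatum: 16 of glycolysis, 4 of the pyruvate dehydrogenase complex and 13 of the citric acid cycle. They were taken by name from a deposited table of 39538 genes, in which 32 carry the listed symbol and Idh3b is written Idh3B and was matched by its gene ID. Glycolysis splits glucose into pyruvate in the cytosol and yields a little ATP and NADH. Pyruvate dehydrogenase then commits pyruvate to the mitochondrion as acetyl-CoA, and the citric acid cycle oxidises it to feed the respiratory chain. In brain, neurons and astrocytes use these enzymes in different proportions and with different isoforms, and astrocytes are known as a site of glycolysis and of lactate release.

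Striatal RNA of male rats was sequenced in 28 libraries: 6 TG crush, 8 TG naive, 6 wt crush and 8 wt naive. TG rats have the labelled genotype ΔETorA and are a model of DYT-TOR1A dystonia, a heritable disorder of movement in which torsinA, an ATPase of the endoplasmic reticulum, lacks a glutamate. Crush rats had received a right-sided sciatic nerve crush lasting 30 seconds, naive rats had no injury, and the labels give 12 weeks after injury for every library, the naive ones included. The promoter that drives the transgene, the age of the animals and the side of the brain taken are not stated in the labels. The study asked which striatal genes and pathways differ between TG and wt rats.

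Levels are given as RPM (reads per 1000000 reads assigned to genes), which are not corrected for length, so they are compared between groups and not between genes. Human TOR1A, the transgene, held 102 to 144 RPM in the 14 TG libraries and at most 0.972 RPM in the 14 wt libraries. The defining marker of striatal spiny projection neurons, Ppp1r1b, held 1299.9 to 3037 RPM in the libraries, while the cortical marker Slc17a7 passed 20 RPM in 1 TG crush, 1 TG naive and 3 wt naive libraries and in no wt crush library. The libraries held 29151455 to 38407359 assigned reads, and every enzyme had at least 889 reads in every library. The part of counting error in the spread between libraries was not tested. TG crush library 223 was lowest of its group for 28 of the 33 enzymes and wt crush library 203 for 27 of 33. These 2 libraries also had the highest share of reads on the mitochondrial genome in their groups, 18.5% and 15.9%, and the part of that share in their low enzyme levels was not tested. Libraries are told apart in the labels by number alone, and p-values cover the spread among them, which may be partly technical.

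All 33 enzymes passed the filter on low values and were tested, with mean levels from 32.7 RPM for Dlat to 1117 RPM for Aldoc. Summed over the 33, a library held 7496, 8684 and 9098 RPM (lowest, median and highest) in TG crush rats, 8171, 8826 and 9142 in TG naive rats, 8406, 8972 and 9122 in wt crush rats, and 8408, 8745 and 9237 in wt naive rats. The 4 groups overlapped throughout. The 16 genes of glycolysis held most reads of this sum, with medians of 6397 RPM in TG crush, 6594 in TG naive, 6603 in wt crush and 6512 in wt naive rats. That share is one of reads not corrected for length, so it does not rank the pathways by expression.

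Across both genotypes, 3 of the 33 enzymes were lower in crush than in naive rats and none was higher. They were Idh2, the mitochondrial NADP-dependent isocitrate dehydrogenase, Suclg2, the subunit that makes succinyl-CoA synthetase form GTP, and Aldoc, the aldolase isoform best known from astrocytes and Purkinje cells. No enzyme passed the test between TG and wt rats in naive rats, in crush rats or averaged over both. Their promoters are shown because the 3 genes fell in the same comparison. Each runs from 250 bases before to 50 bases after the annotated start (RefSeq, GRCr8, 5′ to 3′ on the strand of the gene): Aldoc at chr10:63715294-63715593 on the plus strand, Idh2 at chr1:143467199-143467498 on the minus strand and Suclg2 at chr4:129893888-129894187 on the minus strand. Capitals mark the GC box GGGCGG and the hypoxia response core ACGTG, each searched on both strands.
Idh2: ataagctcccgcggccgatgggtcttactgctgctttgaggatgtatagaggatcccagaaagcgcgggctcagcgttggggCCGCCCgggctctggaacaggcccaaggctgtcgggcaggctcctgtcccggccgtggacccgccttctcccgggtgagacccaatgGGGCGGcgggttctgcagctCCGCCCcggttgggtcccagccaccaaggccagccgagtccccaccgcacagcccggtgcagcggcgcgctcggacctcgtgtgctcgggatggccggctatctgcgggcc
Suclg2: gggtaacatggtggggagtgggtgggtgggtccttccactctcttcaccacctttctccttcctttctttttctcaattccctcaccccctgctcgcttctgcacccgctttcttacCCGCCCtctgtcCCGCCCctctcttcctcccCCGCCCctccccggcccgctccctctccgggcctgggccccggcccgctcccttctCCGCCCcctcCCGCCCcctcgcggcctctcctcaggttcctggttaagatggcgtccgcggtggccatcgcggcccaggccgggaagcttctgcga
Aldoc: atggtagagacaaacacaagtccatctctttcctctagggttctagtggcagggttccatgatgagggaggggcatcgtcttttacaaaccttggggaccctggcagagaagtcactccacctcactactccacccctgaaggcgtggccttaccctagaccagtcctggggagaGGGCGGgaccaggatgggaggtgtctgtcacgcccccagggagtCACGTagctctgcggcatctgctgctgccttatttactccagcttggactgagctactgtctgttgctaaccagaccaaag
The Idh2 window holds 3 GC boxes and no ACGTG, the Suclg2 window 5 GC boxes and no ACGTG, and the Aldoc window 1 of each. The GC box stands in 34.9% of the 27457 RefSeq promoters of this length and in 20 of the 31 enzymes with a promoter in that set. ACGTG stands in 19.7% of all promoters and in 12 of the 31, and the E-box CACGTG, which contains it, in 6.65% and in 3 of the 31. These matches are letters in a window and show no binding.

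In the crush comparison averaged over both genotypes, 9.09% of the enzymes passed (limma, adjusted p under 0.05 over all 18222 genes tested), against 11.4% of all genes. The 3 lower calls stand beside a background of 8.42% of genes called lower, so the share of enzymes called was near that of genes in general. The median log2 change of the 33 enzymes was 0.01, against -0.02 for all genes tested.

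Idh2 makes NADPH in the mitochondrion, where it serves glutathione reduction, and lies at chromosome 1, 141874354 to 141893674 (Rnor_6.0). Its lowest, median and highest levels were 43.1, 52.2 and 60.9 RPM in TG crush libraries and 56.1, 65.3 and 70.8 RPM in TG naive libraries. In wt rats they were 46.9, 50.2 and 53.8 RPM in crush libraries and 52.3, 64.3 and 71.7 RPM in naive libraries. All 6 TG crush libraries lay below the TG naive median and all 6 wt crush libraries below the wt naive median, although the ranges overlapped, with 3 TG crush and 5 wt crush libraries below every naive library of their genotype. Averaged over genotypes, Idh2 fell by 0.32 on the log2 scale, on values of RPM + 0.5 (SE 0.05, limma adjusted p = 0.000420), a decrease of about 20.1%. The decrease passed in TG rats taken alone, where the log2 change was -0.32 (SE 0.07, limma adjusted p = 0.0170), and it was the only one of the 33 enzymes to do so, against 3.08% of all genes called. In wt rats the log2 change was -0.33 (SE 0.07, limma adjusted p = 0.0526), so no enzyme passed there, where 0.159% of genes did. In that wt comparison 3 of the 33 enzymes, or 9.09%, had an unadjusted p under 0.05, against 20.8% of genes, and limma-voom on the whole reads also called 0 of the 33. In TG rats the call was lost without TG crush library 214, 220 or 222, with the log2 change between -0.36 and -0.27 over all libraries left out.

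Suclg2 (chromosome 4, 127552100 to 127824970, Rnor_6.0) had lowest, median and highest levels of 66.2, 75.1 and 97.3 RPM in TG crush and 81.8, 86.7 and 99.5 RPM in TG naive libraries. The wt crush libraries held 71.4, 75.1 and 79.7 RPM and the wt naive libraries 73.1, 90.1 and 99.1 RPM. TG crush library 223 was the one crush library above its genotype's naive median, and the other 5 TG crush libraries lay below every TG naive library. The averaged log2 change was -0.20 (SE 0.05, limma adjusted p = 0.0133). Sucla2, the ATP-forming partner that pairs with the same alpha subunit, Suclg1, had 91.6, 108 and 116 RPM in TG crush and 89.2, 95.8 and 109 RPM in TG naive libraries. Sucla2 had 97.8, 107 and 113 RPM in wt crush and 89.0, 102 and 112 RPM in wt naive libraries. Its log2 change was 0.09 (SE 0.04, limma adjusted p = 0.133) and did not pass.

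Aldoc (chromosome 10, 65586504 to 65590093, Rnor_6.0) cleaves fructose bisphosphate in glycolysis. It had lowest, median and highest levels of 886, 1014 and 1168 RPM in TG crush and 1004, 1231 and 1309 RPM in TG naive libraries, and of 978, 1034 and 1170.4 RPM in wt crush and 1089.6, 1167 and 1249 RPM in wt naive libraries. Of the 6 wt crush libraries, 5 lay below every wt naive library, and the exception was library 203. In TG rats all 6 crush libraries lay below the naive median and 3 below every naive library. Its averaged log2 change was -0.18 (SE 0.05, limma adjusted p = 0.0175). Aldoa, the aldolase of muscle that neurons also express, had 726, 940.2 and 952 RPM in TG crush, 843, 917 and 963 in TG naive, 892, 983 and 1002 in wt crush and 845, 900.1 and 992 in wt naive libraries, a log2 change of 0.04 (SE 0.04, limma adjusted p = 0.517).

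In TG rats taken alone Suclg2 had a log2 change of -0.20 (SE 0.07, limma adjusted p = 0.115), Aldoc one of -0.21 (SE 0.07, adjusted p = 0.0894) and Eno2 the highest, at 0.13 (SE 0.07, adjusted p = 0.321). In wt rats Suclg2 had one of -0.20 (SE 0.07, limma adjusted p = 0.150) and Aldoc one of -0.15 (SE 0.07, adjusted p = 0.204). The highest change in wt rats was that of Dlat, the acetyltransferase of pyruvate dehydrogenase, at 0.13 (SE 0.07, limma adjusted p = 0.272), with 28.7, 35.3 and 37.5 RPM in wt crush and 26.6, 32.1 and 33.5 RPM in wt naive libraries. Of the enzymes that did not pass in the average, the highest log2 change was that of Eno2, the neuronal enolase, at 0.13 (SE 0.05, limma adjusted p = 0.0937). Eno2 had 339, 474 and 502 RPM in TG crush and 378, 409 and 442 RPM in TG naive libraries, and 395, 464 and 487 RPM in wt crush and 371, 429.8 and 454 RPM in wt naive libraries. In each genotype 4 of 6 crush libraries lay above every naive library. With median-of-ratios scaling Eno2 passed, at 0.15 (limma adjusted p = 0.0359), and no share of all genes called is given for that scaling. Eno2 failed in most alternatives. It passed in 2 of 28 fits that left out 1 library and in 2 of the 12 other alternatives, where limma adjusted p reached 0.868. The lowest TG crush value was that of library 223, and without it Eno2 passed at 0.17 (limma adjusted p = 0.00539). Then 6 enzymes passed in the averaged comparison, Ogdh and Sucla2 being higher besides Eno2, and 4 passed in TG rats, with Idh2, Suclg2 and Aldoc lower and Eno2 higher. Calls over all genes were also more frequent without that library, at 20.4% in the average and 6.68% in TG rats. The 4 genes of the pyruvate dehydrogenase complex, Pdha1 and Pdhb for the decarboxylase, Dlat for the acetyltransferase and Dld for the lipoamide dehydrogenase, had averaged log2 changes of 0.03 to 0.10 and none passed. Gapdh, often used as a reference gene, had a change of -0.05 (SE 0.03, limma adjusted p = 0.348). Beside its own 248 RPM, 2 other rows of the table described as Gapdh copies held 260.5 and 279.5 RPM, so its reads cannot be placed with certainty. With the reads of its copies added, the averaged change was 0.00 (limma adjusted p = 0.947), and in wt rats 0.04 in place of -0.01. Between TG and wt it was then -0.11 in crush rats and -0.07 averaged over naive and crush. Its unadjusted p by limma was there 0.0429 and 0.0462 (adjusted p = 0.613 and 0.957).

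**Figure D1:**
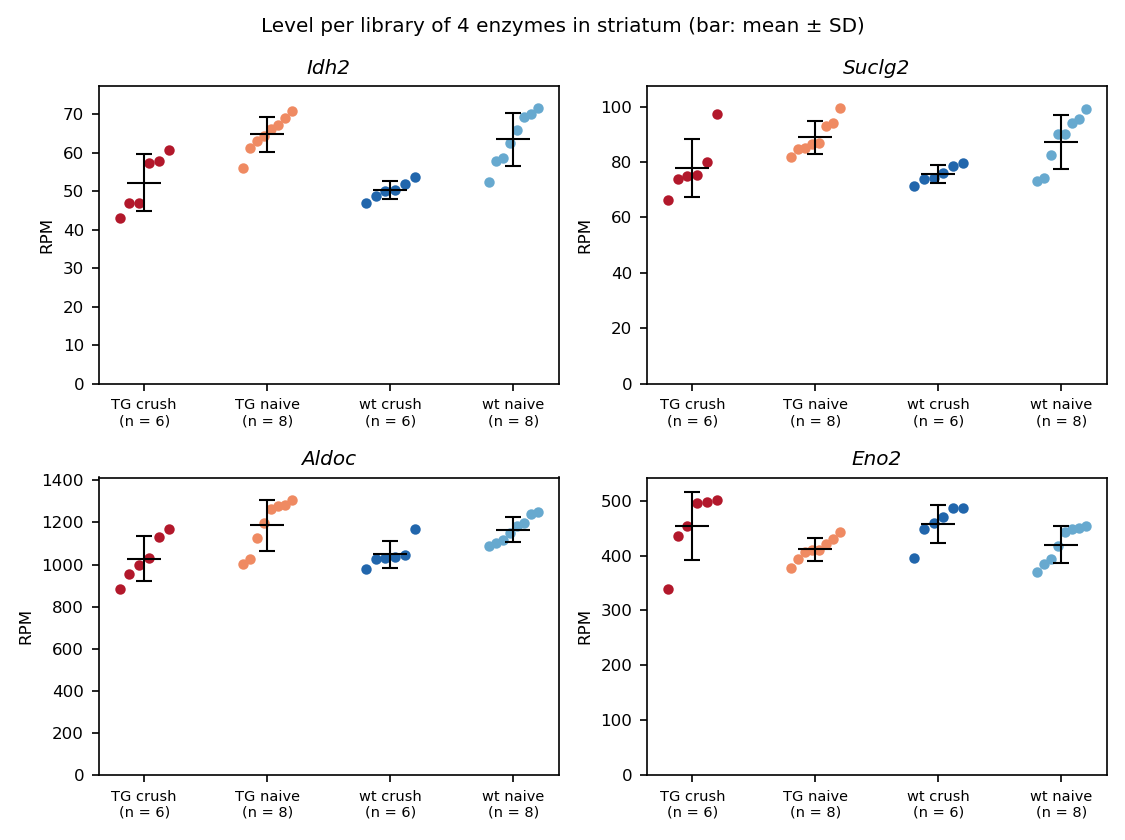
Levels of Idh2, Suclg2, Aldoc and Eno2 in each library, in RPM, with 1 point per library, and the mean and SD as bars; the groups are TG crush (n = 6), TG naive (n = 8), wt crush (n = 6) and wt naive (n = 8). For Idh2, Suclg2 and Aldoc at least 5 of 6 crush libraries of each genotype sit below the naive median, while Eno2, which did not pass the test, has 4 of 6 crush libraries above every naive one in each genotype.

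Markers of other cells moved with the same comparison. All 11 astrocyte markers tested had an averaged log2 change below 0 in crush rats (median -0.15), and 5 passed the test: Gjb6, Aldh1l1, S100b, Fgfr3 and Acsbg1. Their summed level ranged from 4912 to 7009 RPM in TG crush, 5703 to 6629 in TG naive, 4975 to 5461 in wt crush and 5087 to 7374 in wt naive libraries, and no marker was at 0 in any library. Of 11 microglial markers 5 fell (median -0.23), at 439 to 665 RPM in TG crush, 469 to 644 in TG naive, 461 to 541 in wt crush and 443 to 664 in wt naive libraries. Of 11 markers of endothelium and pericytes 4 fell (median -0.15), with sums of 541 to 781 RPM in TG crush, 564 to 691 in TG naive, 537 to 667 in wt crush and 553 to 730 in wt naive libraries. Of 24 markers of spiny projection neurons 1, Ppp2r2a, rose (median 0.17), with sums of 11033 to 19301 RPM in TG crush, 10981 to 18236 in TG naive, 16971 to 19476 in wt crush and 9857 to 19069 in wt naive libraries. By genotype, 13 of these 24 were below 0 in TG rats (median -0.01) and 0 of 24 in wt rats (median 0.37). No marker of these last 3 lists was at 0 in any library. Of 5 pituitary markers tested 2, Gh1 and Prl, rose (median 0.78), and none passed of 7 cortical, 10 myelin, 5 blood and 5 choroid plexus markers (medians -0.17, -0.01, 0.42 and -0.44). In bulk tissue, fewer cells of a type and less RNA per cell cannot be told apart.

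With the mean level of the astrocyte markers as a covariate, a choice made after seeing the data, none of the 3 enzymes passed in the averaged crush comparison, by limma. Idh2 then had a log2 change of -0.18 (adjusted p = 0.0611), Aldoc one of -0.08 (adjusted p = 0.516) and Suclg2 one of -0.04 (adjusted p = 0.664), 2 of the 33 enzymes had an unadjusted p under 0.05, against 12.8% of genes, and 128 genes in all, or 0.702%, were called in place of 2086. In TG rats taken alone, Idh2 passed with that covariate, at -0.22 (adjusted p = 0.0348), as did 3.20% of genes. With the spiny neuron markers in place of the astrocyte ones as covariate the 3 enzymes passed, with log2 changes of -0.27 for Idh2, -0.14 for Suclg2 and -0.14 for Aldoc, against 6.49% of genes called. Without the 5 libraries of over 20 RPM Slc17a7, Idh2 was the 1 enzyme of the 33 that passed, at -0.29 (adjusted p = 0.0107) beside 3.05% of genes, while Aldoc (-0.15, adjusted p = 0.127) and Suclg2 (-0.15, adjusted p = 0.123) did not. In TG rats no enzyme passed without those libraries, against 0.993% of genes, and Idh2 had a log2 change of -0.30 (adjusted p = 0.0950).

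**Figure D2:**
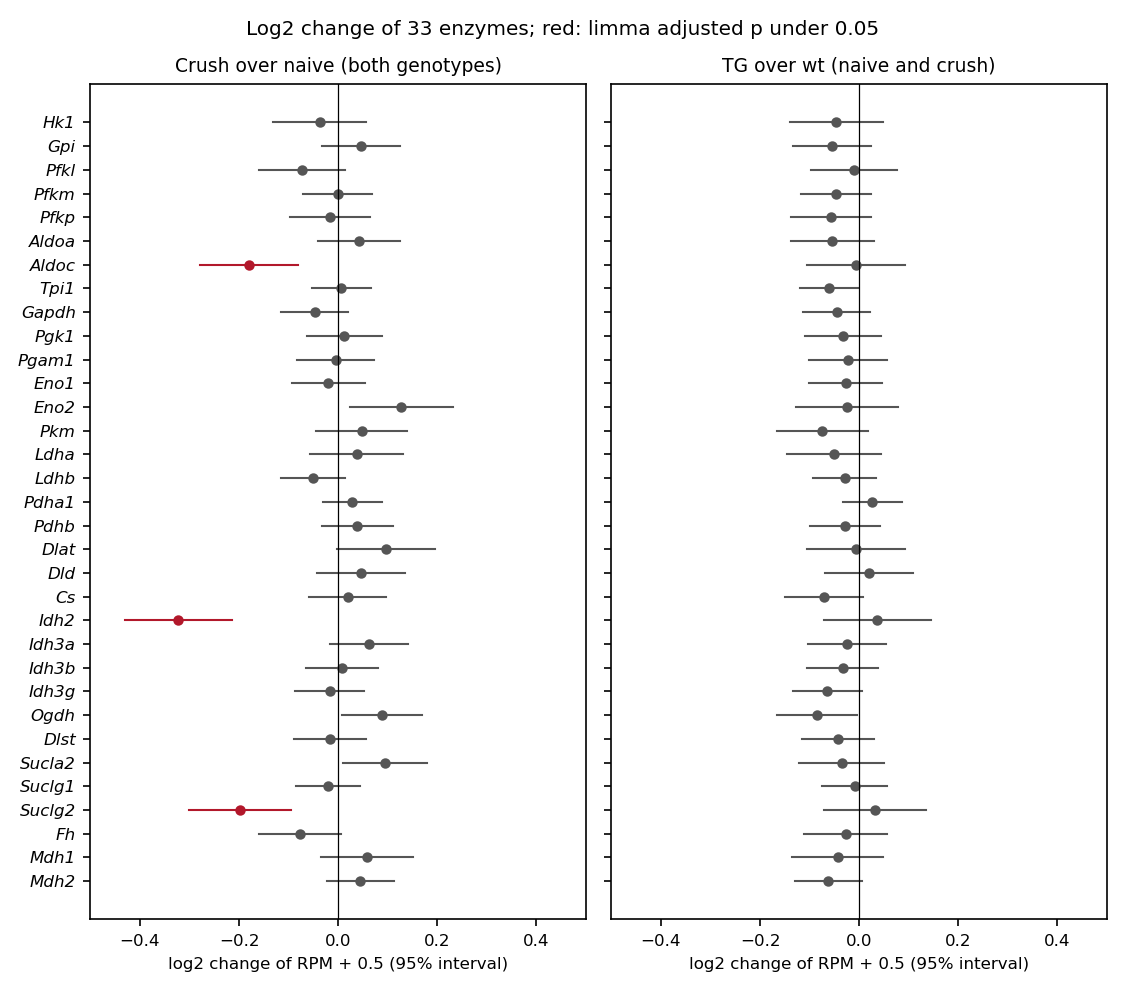
Log2 change of RPM + 0.5 for each of the 33 enzymes, with 95% intervals from limma, for crush over naive averaged over both genotypes (left) and for TG over wt averaged over naive and crush (right). Idh2, Suclg2 and Aldoc, in red, passed the test on the left, and none passed on the right, where 29 of 33 points lie below 0.

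The isoform balance within a library does not depend on how libraries are scaled. The log2 ratio of Aldoa to Aldoc had lowest, median and highest values of -0.64, -0.12 and 0.08 in TG crush and -0.54, -0.38 and -0.24 in TG naive libraries. In wt rats it was -0.39, -0.08 and 0.04 in crush and -0.55, -0.38 and -0.16 in naive libraries. The median was higher in crush than in naive libraries of each genotype, while TG crush library 223 gave the lowest value of all TG libraries. For Sucla2 over Suclg2 the log2 ratio was -0.09, 0.52 and 0.76 in TG crush, -0.05, 0.16 and 0.33 in TG naive, 0.30, 0.53 and 0.61 in wt crush and 0.03, 0.21 and 0.52 in wt naive libraries. Eno1, the enolase of most tissues, held 157, 173 and 189 RPM in TG crush, 149.8, 177 and 189 in TG naive, 166, 171 and 187 in wt crush and 167, 178 and 191 in wt naive libraries. Its log2 ratio to Eno2 had medians of -1.41 in TG crush, -1.25 in TG naive, -1.39 in wt crush and -1.24 in wt naive libraries. A row described as a copy of Eno1 held 104 RPM beside the 175 RPM of Eno1, so the Eno1 level and this ratio are uncertain. Ldha, the lactate dehydrogenase subunit known for turning pyruvate to lactate, over Ldhb, the subunit of oxidative tissues, had medians of -2.38 in TG crush, -2.41 in TG naive, -2.35 in wt crush and -2.47 in wt naive libraries. Ldhb itself held 506, 525 and 574 RPM in TG crush, 512, 559 and 616 in TG naive, 522, 544 and 582 in wt crush and 525, 563 and 575 in wt naive libraries. Of the reads of the 3 phosphofructokinases, Pfkm took a median of 53.2% in TG crush, 52.1% in TG naive, 53.0% in wt crush and 52.8% in wt naive libraries, and Pfkl at most 11.5% in any library. Those shares are of reads not corrected for length. Pfkm, the muscle-type enzyme, held 419.7, 497 and 545 RPM in TG crush, 457, 501 and 523 in TG naive, 465.8, 514 and 535 in wt crush and 487, 504 and 536 in wt naive libraries. These ratios rest on the same values as the fits and were given no test.

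**Figure D3:**
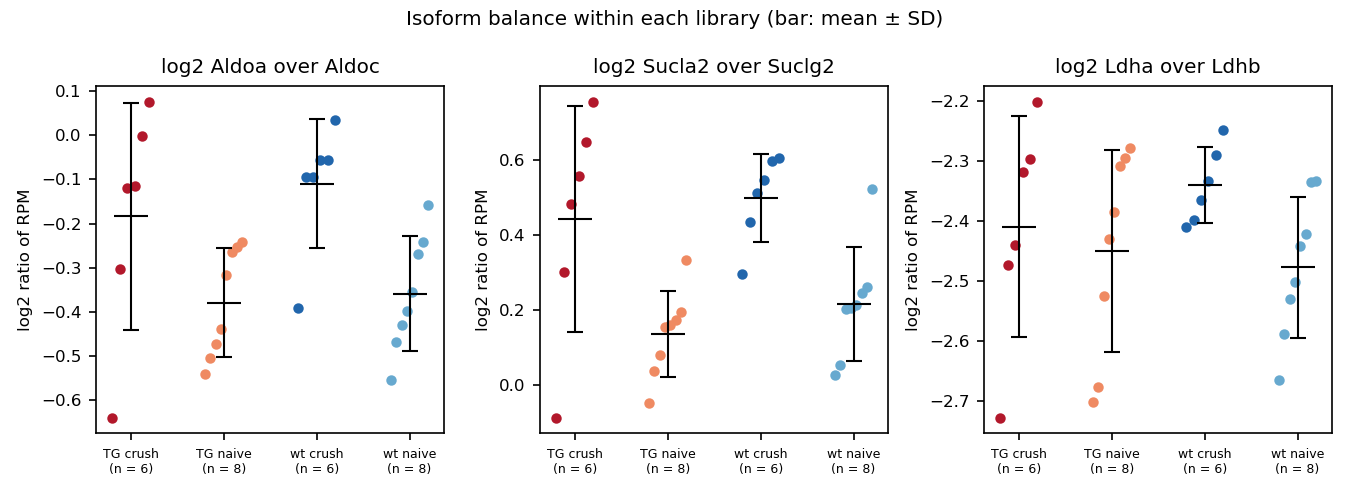
Log2 ratio of RPM of Aldoa over Aldoc, Sucla2 over Suclg2 and Ldha over Ldhb in each library, 1 point per library with mean and SD, in TG crush (n = 6), TG naive (n = 8), wt crush (n = 6) and wt naive (n = 8) rats. Medians of the first 2 ratios are higher in crush than in naive rats of each genotype (-0.12 in TG crush against -0.38 in TG naive for Aldoa over Aldoc), with 1 low TG crush point, library 223, in all 3.

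Between TG and wt rats no enzyme passed the test. In naive rats 0 of 33 passed limma's test, against 0.0329% of all genes, while 1 had an unadjusted p under 0.05 (4.98% of genes) and limma-voom called 0. That 1 was Idh3g, the gamma subunit of the NAD-dependent isocitrate dehydrogenase of the cycle, with 77.4, 87.3 and 92.8 RPM (lowest, median and highest) in TG naive and 86.1, 93.2 and 101 RPM in wt naive libraries. All 8 TG naive libraries lay below the wt naive median, and 4 lay below every wt naive library. The log2 change of Idh3g was -0.10 (SE 0.04, limma adjusted p = 0.954). Over the 33 enzymes the 95% intervals in naive rats reached no lower than -0.19 and no higher than 0.17 on the log2 scale. The next lowest p were those of Ogdh, the E1 subunit of oxoglutarate dehydrogenase, at -0.07 (SE 0.05), and Mdh2, the mitochondrial malate dehydrogenase, at -0.06 (SE 0.04), both with a limma adjusted p of 0.999. Mdh2 had 165, 179.7 and 196 RPM in TG naive and 176, 187 and 197 RPM in wt naive libraries, and 6 of 8 TG naive libraries lay below the wt naive median. The highest change was that of Suclg2, at 0.03 (SE 0.07).

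In crush rats 0 of 33 passed between TG and wt, against 0.00549% of genes, while 2 had an unadjusted p under 0.05 (8.06% of genes) and limma-voom called 0. These were Tpi1, the triose phosphate isomerase, and Pkm, the pyruvate kinase of brain and muscle. Tpi1 had 167, 189.8 and 198 RPM in TG crush and 194, 201 and 205 RPM in wt crush libraries, a log2 change of -0.10 (SE 0.04, limma adjusted p = 0.606). Pkm had 346, 468 and 481 RPM in TG crush and 448, 495 and 510.1 RPM in wt crush libraries, a change of -0.14 (SE 0.07, limma adjusted p = 0.618). A row described as a copy of Pkm held 247 RPM, and with its reads added the change was -0.15 (limma adjusted p = 0.613). For both genes all 6 TG crush libraries lay below the wt crush median, and the ranges overlapped. Pfkp, the phosphofructokinase of platelets and brain, had 259.9, 343 and 381 RPM in TG crush and 341, 363 and 375 RPM in wt crush libraries, a change of -0.12 (SE 0.06, limma adjusted p = 0.630). The highest change was that of Dld, at 0.06 (SE 0.07), with 71.9, 77.9 and 92.5 RPM in TG crush and 73.3, 74.8 and 86.3 RPM in wt crush libraries. Of the 33 enzymes 28 had a change below 0, as did 50.0% of all genes, with a median of -0.04 against 0.00. Without TG crush library 223 the count was 23 and the median -0.01. Of the 24 spiny projection neuron markers 23 had a change below 0 in the same comparison (median -0.24), none passed, and without library 223 it was again 23 (median -0.14). With their mean level as a covariate 28 of the 33 enzymes were below 0 (median -0.05). No share of all genes below 0 is given for these alternative fits, so their enzyme counts have no background. Of the glial markers 1 of 11 astrocyte, 2 of 10 myelin and 0 of 11 microglial markers were below 0, with medians of 0.09, 0.11 and 0.11, and their part in the enzyme values was not tested. The 95% intervals spanned -0.28 to 0.20.

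Averaged over naive and crush rats, 0 of 33 enzymes passed between TG and wt, against 0.0384% of genes, while 2 had an unadjusted p under 0.05 (5.09% of genes) and limma-voom called 0. Ogdh had a log2 change of -0.08 (SE 0.04, limma adjusted p = 0.956) and Tpi1 one of -0.06 (SE 0.03, limma adjusted p = 0.956), and Idh3g, which followed, one of -0.06 (SE 0.03, limma adjusted p = 0.956). A row described as a copy of Ogdh held 122 RPM, and with its reads added the change was -0.08 (limma adjusted p = 0.957). Ogdh held 170.3, 216 and 227 RPM in TG crush and 202, 224 and 238 RPM in wt crush libraries. In naive rats it held 187, 197 and 208 RPM in TG and 182, 209 and 224 RPM in wt libraries. The change was below 0 for 29 of 33 enzymes, against 54.9% of all genes, and for all 16 glycolytic enzymes. The median was -0.03, against -0.01 for all genes, and the exceptions above 0 were Pdha1, Idh2, Suclg2 and Dld, Idh2 being highest at 0.04 (SE 0.05). With median-of-ratios scaling 27 of 33 were below 0, and without library 223 the count was 24. Of the 24 spiny neuron markers 22 were below 0 here (median -0.07), none passed, and without library 223 it was 14 (median -0.01). With their mean level as a covariate 28 of the 33 enzymes were below 0. The share of all genes below 0 is not given for the alternative fits here either. No 95% interval reached below -0.17 or above 0.14. Whether the crush difference depended on genotype was tested by the interaction, and 0 of 33 passed, against 0.00549% of genes, with 0 at an unadjusted p under 0.05 (7.49% of genes) and 0 by limma-voom. The lowest p there was that of Ldha, with a log2 difference of -0.15 (SE 0.09, limma adjusted p = 0.713). Ldha had 76.4, 106 and 110.1 RPM in TG crush, 89.3, 104 and 109 in TG naive, 99.5, 109 and 115 in wt crush and 89.5, 101 and 113 in wt naive libraries. Next came Pfkp at -0.12 (SE 0.08) and Pkm at -0.13 (SE 0.09), with limma adjusted p of 0.728 and 0.730. In naive rats Pfkp held 333, 349 and 388 RPM in TG and 331, 349 and 366 RPM in wt libraries, and Pkm 420.0, 451 and 489 RPM in TG and 404, 444 and 502 RPM in wt libraries. The highest difference was that of Pfkl, the liver-type phosphofructokinase, at 0.09 (SE 0.08). Pfkl had 86.8, 96.4 and 105 RPM in TG crush, 88.4, 97.3 and 113 in TG naive, 88.8, 93.4 and 99.1 in wt crush and 95.5, 101 and 112 in wt naive libraries. All 24 spiny neuron markers had an interaction below 0 (median -0.35), none of which passed.

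The spread between libraries differed by group. The coefficient of variation of an enzyme had a median of 9.03% among TG crush, 6.45% among TG naive, 4.75% among wt crush and 5.99% among wt naive libraries. Without library 223 the TG crush median was 5.74%, below that of wt naive libraries, and without library 203 the wt crush median was 3.03%. All 33 enzymes varied more among TG crush than among wt crush libraries. So did 92.7% of the 5873 tested genes whose mean level was at least that of the lowest enzyme. Without library 223 it was 20 of 33 enzymes and 78.9% of those genes, and without both 223 and 203 it was 32 of 33 and 86.8%. Library 223 was also the TG crush library with the lowest summed spiny neuron markers, 11033 RPM, and the highest summed myelin markers, 35446 RPM, and the part of these in its enzyme levels was not tested. Idh2, Suclg2 and Aldoc were among the 5 enzymes that were not lowest of their group in library 223, and Idh2 and Suclg2 were highest there, at 60.9 and 97.3 RPM.

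**Figure D4:**
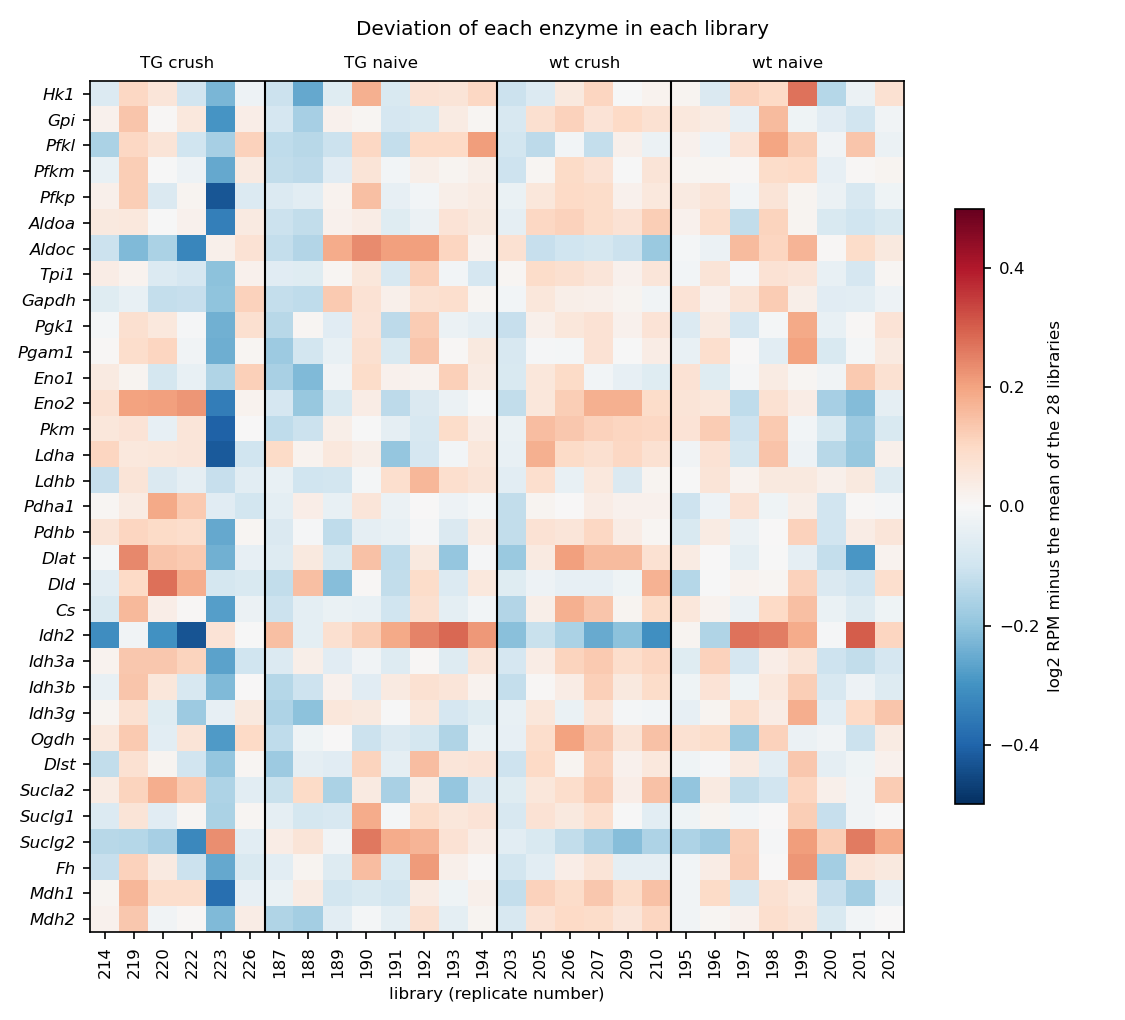
Log2 RPM of each of the 33 enzymes (rows) in each of the 28 libraries (columns), minus the mean of the enzyme over all libraries; red is above and blue below the mean, and lines separate TG crush, TG naive, wt crush and wt naive. TG crush library 223 is the lowest of its group in 28 of 33 rows, and the rows of Idh2, Suclg2 and Aldoc are bluer in the crush columns than in the naive ones.

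Of 80 other genes of these and adjoining pathways, 70 passed the filter and were tested. In the averaged crush comparison 2 rose and 7 fell, or 12.9%, again beside 11.4% of all genes. Without TG crush library 223 it was 6 and 8, beside 20.4% of all genes. In glycogen metabolism Pygm, the muscle glycogen phosphorylase that astrocytes also express, fell, with a log2 change of -0.33 (SE 0.06, limma adjusted p = 0.00104). Pygm had 68.0, 70.7 and 89.6 RPM in TG crush and 79.6, 99.98 and 122 RPM in TG naive libraries, and 76.4, 77.2 and 81.6 RPM in wt crush and 80.6, 96.7 and 99.9 RPM in wt naive libraries. Among the 5 glucose and lactate transporters, Slc2a1, the glucose transporter of the blood-brain barrier and astrocytes, fell by 0.18 (SE 0.05) and Slc16a3, a lactate exporter at under 1.31 RPM in every library, fell by 0.33 (SE 0.10), or by 0.56 with limma-voom, which adds no 0.5 RPM. Slc16a7, the lactate transporter of neurons, rose by 0.24 (SE 0.06, limma adjusted p = 0.0111).

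Among other glycolytic genes Bpgm, which makes and breaks bisphosphoglycerate, fell by 0.17 (SE 0.03, limma adjusted p = 0.00278) and Pgm1, which links glycogen to glycolysis, fell by 0.11 (SE 0.03). Sdhaf1, an assembly factor of succinate dehydrogenase, fell by 0.13 (SE 0.04), and Slc25a12, the neuronal aspartate-glutamate carrier of the malate-aspartate shuttle, rose by 0.18 (SE 0.05, limma adjusted p = 0.0152). None of the 11 genes of pyruvate entry or the 8 of the pentose phosphate pathway passed. In TG rats taken alone 2 of the 70 fell, Pygm by 0.42 (SE 0.08) and Bpgm by 0.21 (SE 0.05), beside 3.08% of all genes called. In wt rats limma and limma-voom called 0 of the 70, with 17 at an unadjusted p under 0.05, beside 20.8% of all genes. Between genotypes and in the interaction both tools also called 0, with 1 gene at an unadjusted p under 0.05 in naive rats, 2 in crush rats, 6 in the average of both and 2 in the interaction, beside 4.98%, 8.06%, 5.09% and 7.49% of all genes in the same order. The genes of lowest p between genotypes averaged over treatment were Pc, pyruvate carboxylase, at -0.09 (SE 0.04, limma adjusted p = 0.944) and Rpe at 0.08 (SE 0.03, limma adjusted p = 0.956). With the mean level of the astrocyte markers as a covariate, 0 of the 70 passed in the averaged crush comparison, with 8 at an unadjusted p under 0.05 (12.8% of genes), and Pygm had a log2 change of -0.19 (limma adjusted p = 0.108). In TG rats taken alone Pygm (-0.32, limma adjusted p = 0.00870) and Bpgm (-0.17, limma adjusted p = 0.0300) passed with that covariate.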

How the data were processed

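The 28 striatal libraries were made with a stranded mRNA kit and read from 1 end over 75 nt, per the labels' protocols. There were 2 runs, and no label ties a library to a run, so no batch could be tested. STAR 2.6.1a, featureCounts of Subread 1.6.3, DESeq2 1.22.2 and Rnor_6.0 are named in the submitters' processing notes. No source used here gives the strand setting of the counts: Idh3b overlaps Nop56 and Dlst overlaps Rps6kl1 on the opposite strand, so their reads may be shared. Rows described as copies of Gapdh, Eno1, Pkm and Ogdh make these 4 uncertain too.

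The deposited table holds RPKM values made by the authors, written with decimal commas and so recorded as another unit. Its length is the gene span with introns, as tested on all 39538 genes. RPKM times length in kilobases gave RPM that sum to 1000000 in every library, and 100% of values above 0 were whole reads within a tolerance of 0.02. The libraries held 29151455 to 38407359 assigned reads, and the limit set by 0 reads is 0.103 RPM at the lowest of these depths (counting error only).

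Log2 values of RPM + 0.5 were fitted together for the 28 libraries with limma 3.58.1 in R 4.3.3, on the 4 groups and with a variance trend. Genes of at least 0.5 RPM in at least 6 libraries were tested, with Benjamini-Hochberg adjustment over all of them and calls at 0.05. The fit was run on simulated data in which genes varied independently, so shifts shared by many genes of a library were not tested. The enzymes, the other pathway genes and the marker lists were chosen with earlier results of these data known. One of the other pathway genes is counted but not reported here by name. Described in full are, per comparison, the enzymes that passed or the 3 of lowest p, those of largest and smallest change, and the isoform pairs, with Sucla2, Gapdh, Aldoa and the pyruvate dehydrogenase subunits named beside them.

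Alternatives were RPKM with a minimum of 0.5 and a pseudocount of 0.1, RPM pseudocounts of 5 and 0.05, no filter, a minimum of 5 RPM in 14 libraries, median-of-ratios scaling, the compared groups alone, limma-voom on whole reads, array weights, the spiny neuron marker level as a covariate, leaving out libraries over 20 RPM of Slc17a7, and leaving out each library. Chosen after seeing the data were the astrocyte marker level as a covariate and adding the reads of copies to the parent gene. Plots were made in Python 3.11.15 with matplotlib 3.10.9.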

Additional observations from a re-analysis of the deposited data

Results flagged for a closer look

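Within groups of 6 or 8 libraries, 136 sets of values were searched for a library far from the others. In all 16 were found, where chance gives about 1 in 20, or 6.8, for independent sets. These sets share the same libraries and include the sum of the enzymes, so they are not independent and 6.8 is no test. Of the 16, 6 were in TG crush library 223, all lowest of the group: Gpi at 409 RPM, Aldoa at 726, Pgk1 at 205, Pkm at 346, Pdhb at 68.8 and the sum of the 33 enzymes at 7496 RPM. The next TG crush library held 503 RPM of Gpi, 917 of Aldoa, 240.4 of Pgk1, 445 of Pkm, 82.9 of Pdhb and 8590 in sum.

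In wt crush library 203 there were 9. Its levels were lowest of the group for Gpi (475 RPM), Aldoa (892), Pgk1 (223), Pkm (448), Pdha1 (99.6), Mdh1 (493.3), Mdh2 (176) and the sum of the 33 enzymes (8406), and highest for Aldoc (1170.4 RPM, against 1045 in the next library). The remaining one was Dld in wt crush library 210, the highest of its group at 86.3 RPM, against 75.3 RPM in the next library.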

How the results depend on the processing

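The counts of 0 enzymes for TG against wt (naive, crush and averaged) and for the interaction did not change under any alternative run. In wt rats 0 enzymes passed between crush and naive, against 1 with a minimum of 5 RPM in 14 libraries, 2 with array weights and 0 to 1 leaving out 1 library. In TG rats 1 passed, against 0 with the compared groups alone or without the libraries over 20 RPM of Slc17a7. It was 3 with array weights or with the spiny neuron marker level as a covariate. Leaving out 1 library gave 0 to 4 (4 without TG crush library 223). Of all genes, 0.993% were called in TG rats without the Slc17a7 libraries and 6.68% without library 223. The share of all genes is not given for the other wt and TG settings listed here, so those counts have no background. In the average 3 passed, against 9 with array weights (6 higher, with 4579 genes called in all in place of 2086), 1 without the libraries over 20 RPM of Slc17a7, 0 with the astrocyte marker level as a covariate, and 3 to 6 leaving out 1 library (6 without TG crush library 223). The astrocyte marker level as a covariate turned Idh2 in TG against wt, averaged, to -0.0136 and Suclg2 in wt crush against wt naive to 0.000412. Suclg2 in TG naive against wt naive ranged from -0.00348 to 0.0587 leaving out 1 library and was -0.000358 without wt naive library 195. The cause was not tested. Of the other enzyme values, 1368 kept their direction and side of the threshold, 20 came to pass and 10 no longer did. Suclg2 was not tested with the RPKM minimum. No paired analysis was possible because no replicate number is shared between groups.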
